A study of Mus musculus with 38 samples.

Results

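The nuclear genes of respiratory complexes II to V were followed in the brain and liver of mice given haloperidol, an antipsychotic drug that blocks dopamine D2 receptors. Members were the genes whose symbols match the subunits and assembly factors of succinate dehydrogenase (Sdh, Sdhaf), the cytochrome bc1 complex (Uqcr and Cyc1), cytochrome c (Cycs), cytochrome c oxidase (Cox4 to Cox8 and Cox10 to Cox19) and ATP synthase (Atp5 and Fmc1), each read from its probe set with the highest mean. This gave 60 of the 18820 genes with a probe set of a single name: 8 of complex II, 8 of complex III, cytochrome c itself, 25 of complex IV and 18 of complex V. By role, 47 were subunits and 13 were assembly factors. The 6 probe sets that name Cox7c, Uqcrc2 or Cox11 together with another gene were outside the rule. None of the genes on the array carried the name of a mitochondrially encoded subunit, so the core of complexes III, IV and V that the mitochondrial genome encodes was not analysed here.

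The mice were C57BL/6J, an inbred strain bred in the laboratory from Jackson Laboratory stock. One group received haloperidol from slow-release pellets for 30 days and the other placebo. Affymetrix arrays were made from whole brain (10 haloperidol and 10 placebo) and liver (9 haloperidol and 9 placebo), with 1 mouse per array according to the design text, and arrays are named below by the tag in their title, such as 4N. The labels used here give no dose, sex or age. The values are log2 RMA values, in which only differences within a probe set and a tissue were compared.

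The respiratory chain passes electrons to oxygen and uses the energy to pump protons across the inner mitochondrial membrane. Complex II feeds electrons from succinate into the ubiquinone pool, complex III hands them to cytochrome c, complex IV passes them to oxygen, and complex V lets the protons flow back to make ATP. Neurons draw most of the ATP for their ion pumps from this chain, and liver uses it to oxidise fatty acids.

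In brain, 46 of the 58 members tested were higher with haloperidol and 0 were lower, at a Benjamini-Hochberg adjusted p under 0.05 in limma over all 12547 genes tested. Of all genes tested, 15.2% were higher and 15.2% lower. The median change over the members was 0.38 on the log2 scale, against -0.02 for all genes, and 56 of the 58 lay above 0. By complex, 7 of 8 members rose in complex II, 7 of 8 in complex III, 17 of 23 in complex IV and 14 of 18 in complex V, and Cycs rose too. The median changes were 0.41, 0.40, 0.27 and 0.43 for complexes II, III, IV and V. In liver, 0 of 57 members passed, and their median change was -0.12. Cox7b2 and Cox8c were too dim to be tested in either tissue and Cox8b too dim in liver, while none of the members tested in brain had passed the limit on dim genes only through the haloperidol group. In bulk tissue, fewer cells of a type and less RNA per cell cannot be told apart.

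**Figure D1:**
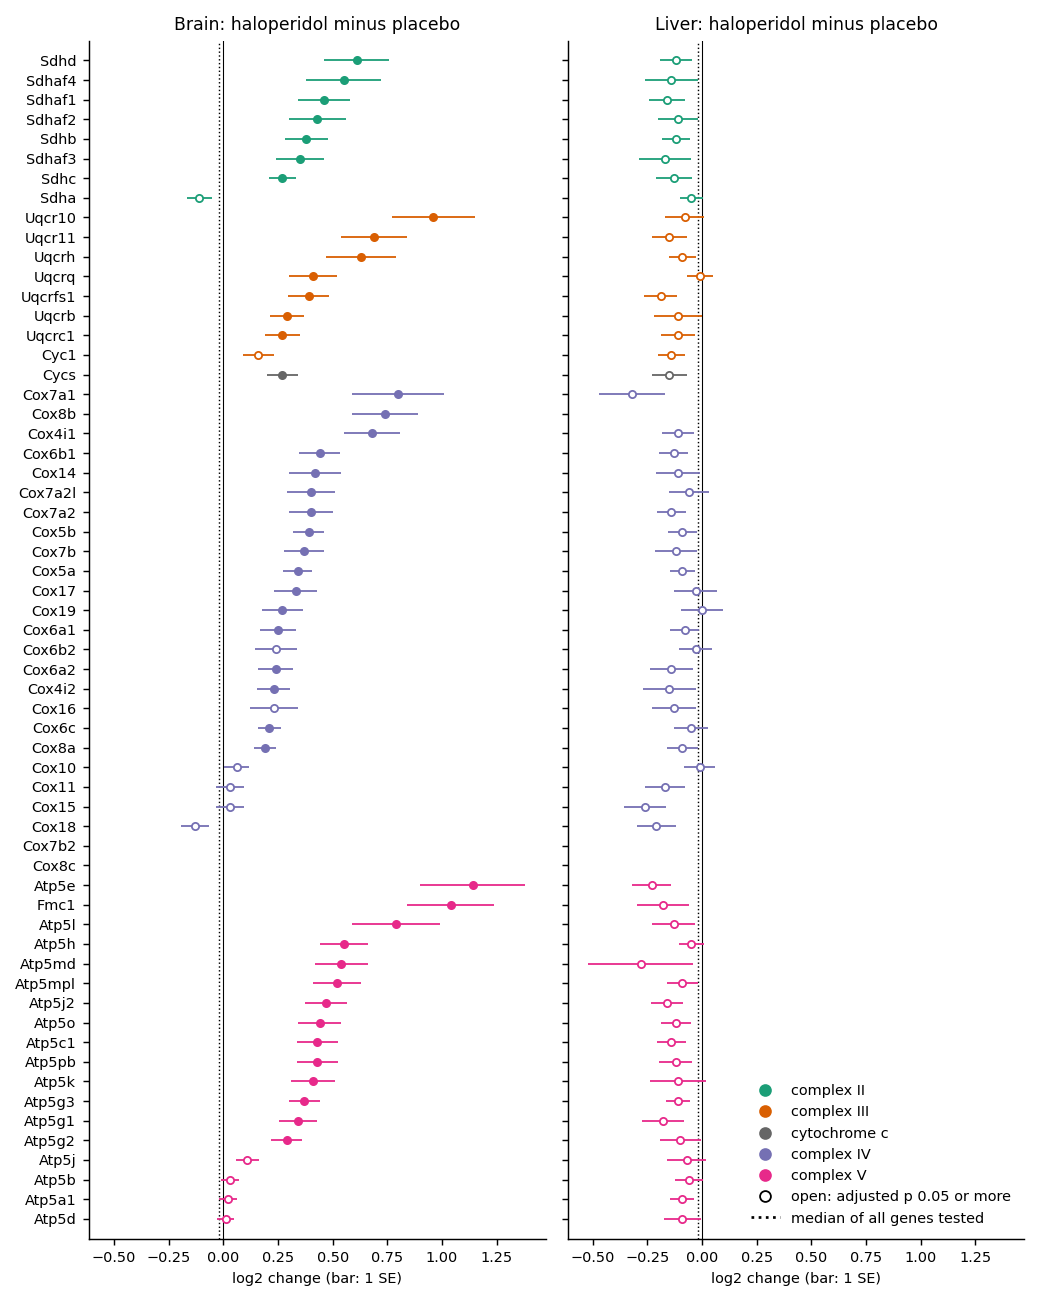
Change with haloperidol (log2, horizontal axis) of each of the 60 members in brain (left) and liver (right), with 1 standard error, coloured by complex; rows without a point were too dim to be tested. Filled points passed the threshold, open points did not, and the dotted line is the median of all genes tested (-0.02 in both tissues). In brain 46 filled points lie right of 0, and in liver all points are open and nearly all lie left of 0.

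By role, 38 of 45 subunits and 8 of 13 assembly factors rose. Within complex IV, 14 of 15 subunits but 3 of 8 assembly factors rose, with median changes of 0.37 and 0.14. In complex II all 4 assembly factors rose. No test of the difference between the roles was made.

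Complex II joins the respiratory chain to the tricarboxylic acid cycle. Sdhd, one of its membrane anchors, ranged from 8.76 to 9.32 around a median of 9.08 in the placebo brains and from 9.06 to 10.30 around 9.70 in the haloperidol brains. It was higher by 0.61 (SE 0.15, adjusted p = 0.00587), and 7 of 10 haloperidol brains lay above every placebo brain while 3 lay among them. Sdhc, the other anchor, ran from 9.79 to 10.04 with placebo (median 9.88) and from 9.93 to 10.42 with haloperidol (median 10.18), a rise of 0.27 (SE 0.060, adjusted p = 0.00479). Sdhb, the iron-sulfur subunit, ran from 9.82 to 10.29 (median 10.03) and from 9.92 to 10.92 (median 10.45), a rise of 0.38. Sdha, the flavoprotein that binds succinate, stood apart from its partners. It ran from 11.38 to 11.62 (median 11.53) in the placebo brains and from 11.14 to 11.60 (median 11.41) in the haloperidol brains, and only 2 of 10 haloperidol brains lay above the placebo mean. Its change was -0.11 (SE 0.0555) and did not pass (adjusted p = 0.117). With quantile normalization within the tissue or with array weights it passed as lower, at -0.23 and -0.13. After subtraction of each array's median over all probe sets, all 8 members of complex II lay above 0, and Sdha did not pass. That subtraction moved all brain changes up alike, to a median of 0.12 over all genes. Relative to the median gene, the change of Sdha was -0.09 before the subtraction. The sign of its change thus depended on the scaling.

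The 4 assembly factors of complex II rose by 0.35 to 0.55. Sdhaf4, which helps the flavinylated Sdha join Sdhb, rose by 0.55, with placebo brains between 6.53 and 7.26 and haloperidol brains between 6.52 and 8.08. The groups overlapped over the whole placebo range, and 4 haloperidol brains lay above it. Sdhaf1 and Sdhaf3, which protect the iron-sulfur clusters of Sdhb, rose by 0.46 and 0.35, and Sdhaf2, which is needed to attach the flavin to Sdha, by 0.43. These factors had wider spreads with haloperidol than with placebo, and Sdhaf2, Sdhaf3 and Sdhaf4 did not pass in a Wilcoxon rank sum test with the same adjustment (adjusted p = 0.0632, 0.0632 and 0.0846).

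Complex III rose in 7 of its 8 members. Uqcr10, a small subunit of the complex, showed the largest change: the placebo brains ran from 8.76 to 9.68 (median 9.07) and the haloperidol brains from 9.23 to 10.79 (median 10.31). It rose by 0.96 (SE 0.19, adjusted p = 0.00424), 1.95-fold, with all 10 haloperidol brains above the placebo mean and 7 above every placebo brain. Uqcr11, another small subunit, ran from 8.95 to 9.80 (median 9.09) and from 9.16 to 10.51 (median 9.89), a rise of 0.69. Uqcrh, the acidic hinge protein next to cytochrome c1, ran from 10.68 to 11.32 and from 10.88 to 12.17, a rise of 0.63 (adjusted p = 0.00731), which the Wilcoxon test did not pass (adjusted p = 0.0551). Uqcrfs1, the Rieske iron-sulfur protein, rose by 0.39, Uqcrq by 0.41, Uqcrb by 0.29 and Uqcrc1, a core subunit, by 0.27. Uqcrc1 was at 10.16 in placebo brain 1N, below all other brains of that group, and lost its call under quantile normalization (0.19, adjusted p = 0.0529).

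The electron carriers between complexes III and IV had smaller changes than the median member. Cyc1, the cytochrome c1 that reduces cytochrome c, ran from 10.47 to 10.86 (median 10.67) with placebo and from 10.63 to 11.12 (median 10.80) with haloperidol. Its change of 0.16 (SE 0.0713) did not pass (adjusted p = 0.0964). Cycs, somatic cytochrome c itself, ran from 11.04 to 11.50 (median 11.29) and from 11.31 to 11.89 (median 11.50), a rise of 0.27 (SE 0.0715, adjusted p = 0.00848). All 10 haloperidol brains lay above the placebo mean and 5 above every placebo brain. The other probe sets of Cycs moved by 0.37 and -0.12, and the mean of the 3 did not pass (0.17, adjusted p = 0.0837).

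In complex IV the subunits expressed in most tissues rose together. Cox5b, a subunit on the matrix side, had the smallest adjusted p of any member (0.00374): placebo brains ran from 11.21 to 11.52 (median 11.37) and haloperidol brains from 11.39 to 11.97 (median 11.81). Its rise was 0.39 (SE 0.0711), with 9 of 10 haloperidol brains above every placebo brain. Cox5a, its neighbour in the complex, lay between 8.87 and 9.27 with placebo and between 9.09 and 9.61 with haloperidol, a rise of 0.34. Cox4i1, the common form of the largest nuclear subunit, ran from 10.65 to 11.25 (median 10.89) and from 11.00 to 12.03 (median 11.73). It rose by 0.68 (SE 0.13, adjusted p = 0.00423), 1.60-fold, and 8 haloperidol brains lay above every placebo brain. Cox6b1, which bridges the monomers of the oxidase on its outer side, rose by 0.44. Cox7b rose by 0.37, Cox6c by 0.21 and Cox14, an assembly factor that binds newly made Cox1, by 0.42.

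Several oxidase subunits exist as a common and a tissue-restricted form, and the probe sets of both forms moved upward in most pairs. Cox4i2, the form known from lung and induced by low oxygen, rose by 0.23 (SE 0.0752, adjusted p = 0.0258) beside 0.68 for Cox4i1. Cox6a1, the common form, rose by 0.25, and Cox6a2, the heart and skeletal muscle form, by 0.24. Cox6b2, the testis form, changed by 0.24 and did not pass (adjusted p = 0.0594), although 9 of 10 haloperidol brains were above the placebo mean. Cox7a1, the heart and muscle form, ran from 6.00 to 7.09 (median 6.69) with placebo and from 6.61 to 8.34 (median 7.46) with haloperidol, a rise of 0.80 (SE 0.21, adjusted p = 0.00820). Cox7a2, the common form, and the related Cox7a2l each rose by 0.40. Cox8a, the common form, rose by 0.19 (SE 0.0485, adjusted p = 0.00705), from 11.75 to 11.98 with placebo to 11.92 to 12.20 with haloperidol, and lost its call under quantile normalization (0.097, adjusted p = 0.0595). Cox8b, the heart and muscle form, ran from 5.58 to 6.26 (median 6.00) and from 6.07 to 7.30 (median 6.74), a rise of 0.74 (SE 0.15, adjusted p = 0.00437). Cox8c, the testis form, lay between 4.94 and 5.72 in all brains, at or near the limit on dim genes of 5.52, and was not tested.

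The muscle forms were set beside markers of skeletal muscle and brown fat, the other tissues in which they are abundant. Of 8 skeletal muscle markers, 2 were above the dim limit in brain and 0 passed, and the mean level over the list ran from 4.82 to 5.44 with placebo and from 4.72 to 5.09 with haloperidol. Ckm, muscle creatine kinase, lay between 5.20 and 5.95 in all brains. Of 5 brown fat markers, 3 were above the dim limit in brain, 1 rose and 0 fell, and the mean level over the list ran from 6.32 to 6.59 with placebo and from 6.32 to 6.63 with haloperidol. The one that rose was Cidea, a lipid droplet protein, by 0.37 (SE 0.13, adjusted p = 0.0352), from 4.85 to 5.82 with placebo and from 5.35 to 6.36 with haloperidol. Its placebo mean of 5.42 was below the dim limit and its haloperidol mean of 5.79 above it. Cidea was thus tested only through the haloperidol group, and its call is no independent sign of a rise. Ucp1, the uncoupling protein that defines brown fat, lay between 3.71 and 4.48, below the dim limit. The part of these markers in the rise of the muscle forms was not tested.

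The assembly factors of complex IV had a lower median change (0.14) than its subunits (0.37). Cox17, a copper chaperone, rose by 0.33 and Cox19, which also serves copper delivery, by 0.27. Cox11, which delivers copper to the oxidase, changed by 0.03. The heme A enzymes Cox10 and Cox15 changed by 0.06 and 0.03, and 7 and 5 of 10 haloperidol brains lay above the placebo mean. Cox16 changed by 0.23 and did not pass (adjusted p = 0.122). Cox18, which moves the tail of Cox2 across the membrane, lay between 8.95 and 9.33 in the placebo brains (median 9.20) and between 8.77 and 9.26 in the haloperidol brains (median 9.04), a change of -0.13 (SE 0.0625, adjusted p = 0.123). Cox18 and Sdha were the only members tested whose brain change lay below 0. After subtraction of each array's median over all probe sets, all 58 members tested lay above 0. The subtraction moved all brain changes up alike, and the median over all genes from -0.02 to 0.12. Relative to the median gene, Cox18 and Sdha changed by -0.11 and -0.09 before the subtraction.

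Complex V held the largest changes and also several of the smallest. Atp5e, the small epsilon subunit of the central stalk, ran from 8.71 to 9.75 (median 9.06) in the placebo brains and from 9.20 to 11.22 (median 10.58) in the haloperidol brains. It rose by 1.14 (SE 0.24, adjusted p = 0.00444), 2.20-fold, with 7 of 10 haloperidol brains above every placebo brain and 4L, 1R and 4T within the placebo range. Fmc1, an assembly factor of ATP synthase, ran from 7.88 to 8.69 (median 8.06) and from 8.24 to 10.00 (median 9.36), a rise of 1.04 (SE 0.20, adjusted p = 0.00424) or 2.06-fold. Atp5l, subunit g of the membrane part, ran from 8.87 to 9.78 and from 9.08 to 10.81, a rise of 0.79. Subunit d, Atp5h, ran from 10.97 to 11.39 (median 11.20) and from 11.30 to 12.24 (median 11.77), a rise of 0.55 (SE 0.11, adjusted p = 0.00423). Atp5pb and Atp5o (OSCP), also subunits of the stator, rose by 0.43 and 0.44, and the gamma subunit Atp5c1 by 0.43. Of the small membrane subunits, Atp5md rose by 0.54, Atp5mpl by 0.52, Atp5j2 by 0.47 and Atp5k by 0.41.

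The alpha and beta subunits, which form the catalytic head of ATP synthase, and the delta subunit of its central stalk did not pass. Atp5a1 (alpha) ran from 11.92 to 12.10 (median 12.02) with placebo and from 11.95 to 12.12 (median 12.02) with haloperidol, a change of 0.02 (SE 0.0407). Atp5b (beta) ran from 12.33 to 12.56 and from 12.45 to 12.58, a change of 0.03 (SE 0.0419). Atp5d (delta) changed by 0.01 (SE 0.0398), and Atp5j, the coupling factor F6, by 0.11 (adjusted p = 0.0900). In Atp5a1 and Atp5b the groups covered nearly the same range. The 3 genes of subunit c, Atp5g1, Atp5g2 and Atp5g3, encode the same mature protein with different import sequences and rose by 0.34, 0.29 and 0.37, with all 10 haloperidol brains above the placebo mean in each.

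**Figure D2:**
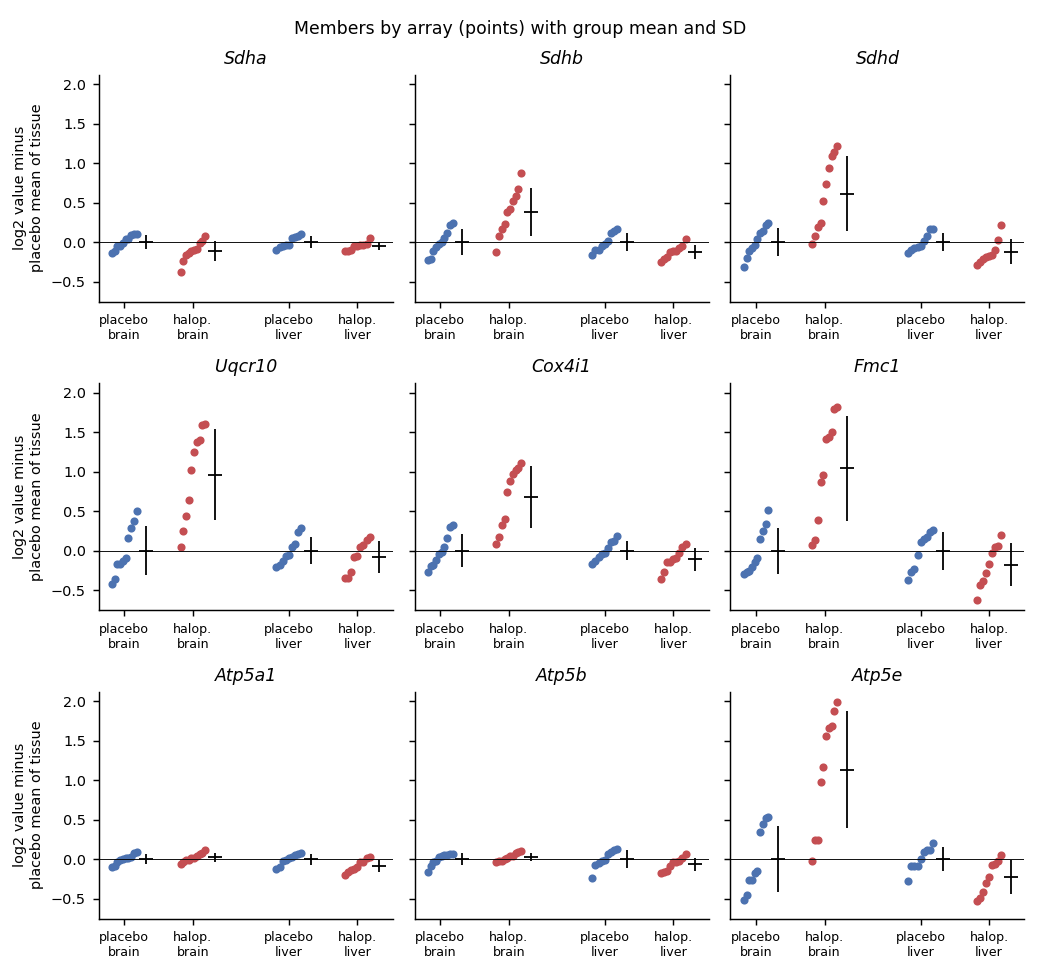
Value of 9 members on each array, as log2 value minus the placebo mean of that tissue (vertical axis), with group mean and SD (cross and bar), for placebo (blue) and haloperidol (red) in brain and liver. In Uqcr10, Cox4i1, Fmc1 and Atp5e the haloperidol brains spread from the placebo level to far above it, while Sdha, Atp5a1 and Atp5b stay near 0.

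The promoter windows of 3 members of complex V are shown because they span the range of response, chosen after the values were seen: Atp5e with the largest rise, Atp5h with a rise of 0.55, and Atp5b with a change of 0.03. The sequences are the 250 bases before the RefSeq start in GRCm38.p6, 5′ to 3′ on the gene's strand, at chr2:174464102-174464351 (minus strand), chr11:115419920-115420169 (minus strand) and chr10:128083057-128083306 (plus strand). Capitals mark matches, on either strand, to the motifs searched: GCGCANGCG (NRF1), CCGGAAG (ETS factors such as GABP), AAGATGGCG (YY1) and CCAAT (NF-Y).
Atp5e: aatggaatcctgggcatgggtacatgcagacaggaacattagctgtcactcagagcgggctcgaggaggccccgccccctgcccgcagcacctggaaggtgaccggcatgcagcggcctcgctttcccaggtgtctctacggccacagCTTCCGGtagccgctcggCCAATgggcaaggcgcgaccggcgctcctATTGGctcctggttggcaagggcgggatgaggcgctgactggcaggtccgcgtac
Atp5h: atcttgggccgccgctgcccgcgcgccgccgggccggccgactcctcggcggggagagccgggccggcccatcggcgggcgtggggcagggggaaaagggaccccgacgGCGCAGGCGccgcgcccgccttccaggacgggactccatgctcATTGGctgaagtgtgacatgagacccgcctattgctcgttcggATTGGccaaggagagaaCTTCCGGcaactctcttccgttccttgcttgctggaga
Atp5b: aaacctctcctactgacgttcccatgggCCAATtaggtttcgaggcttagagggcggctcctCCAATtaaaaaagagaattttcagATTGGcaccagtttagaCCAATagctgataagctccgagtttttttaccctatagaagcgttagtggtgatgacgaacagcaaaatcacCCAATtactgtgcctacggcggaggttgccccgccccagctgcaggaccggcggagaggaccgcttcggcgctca

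The window of Atp5e held 1 ETS match and 2 CCAAT matches, that of Atp5h 1 NRF1, 1 ETS and 2 CCAAT matches, and that of Atp5b 5 CCAAT matches alone. RefSeq windows of 300 bases, 250 before to 50 after the start, were found for 47 of the 60 members (51 windows). An NRF1 match was in 29.4% of the members' windows, 12.3% of the windows of genes tested in brain and 6.25% of all 32851 windows. The ETS motif was in 41.2%, 15.4% and 8.86%, the YY1 motif in 5.88%, 2.66% and 1.40%, and CCAAT in 51.0%, 36.8% and 37.4%. Among the windows of members that rose in brain, 14 of 38 held an NRF1 match, and among those of members that did not pass, 1 of 12. These 38 windows belonged to 37 genes and the 12 to 9 genes, so some genes counted more than once. For the ETS motif the counts were 16 of 38 and 5 of 12, for YY1 1 of 38 and 2 of 12. For CCAAT they were 20 of 38 and 5 of 12. No test of these differences was made. A match is a run of letters and no measurement of binding.

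The rise was unevenly shared among the haloperidol brains. For each array the median shift of the members from the placebo mean was taken, less the same median over all genes. It ran from -0.10 to 0.20 in the placebo brains (0.01 ± 0.10, SD, n = 10) and from 0.03 to 0.76 in the haloperidol brains (0.39 ± 0.28, SD, n = 10). Haloperidol brains 1R, 4L and 4T, at 0.03, 0.03 and 0.11, lay within the placebo range. 2N was just above it at 0.22, and 2T, 1B, 3R, 2L, 4N and 3B followed at 0.39, 0.46, 0.56, 0.62, 0.69 and 0.76. The complexes kept close company on each array: in 3B their medians were 0.92, 0.76, 0.65 and 0.84 for complexes II to V, and in 1R they were 0.02, -0.02, 0.03 and 0.05. No member had every haloperidol brain above every placebo brain, which held for 0.0399% of all genes tested (5 genes). The SD was wider with haloperidol than with placebo in 53 of 58 members, with a median of 0.27 against 0.14, while over all genes it was 0.19 against 0.14.

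**Figure D3:**
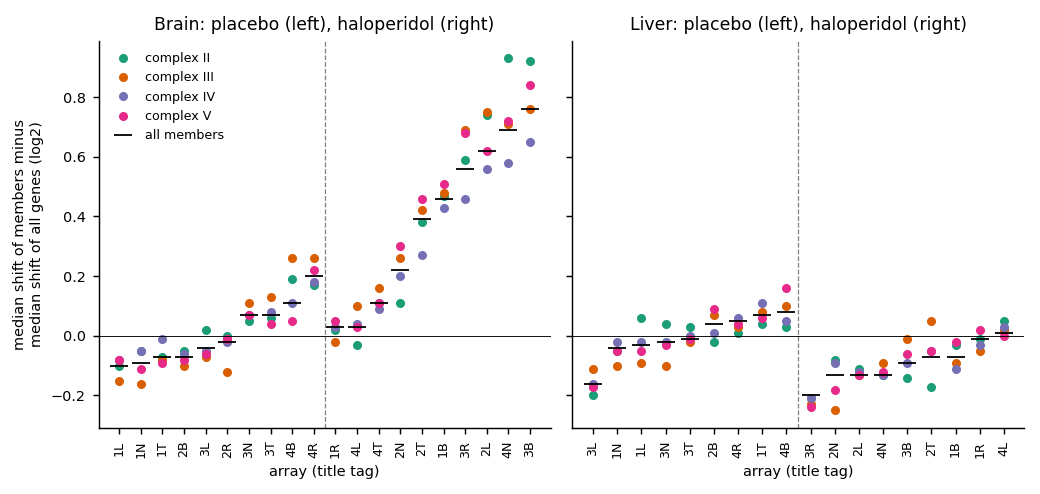
Median shift of the members from the placebo mean, less the median shift of all genes (log2, vertical axis), for each array (horizontal axis, title tag) in brain (left) and liver (right), with points for complexes II to V and a bar for all members. In brain the haloperidol arrays run from 0.03 to 0.76 and the complexes rise together. In liver the bars lie between -0.20 and 0.08.

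Other measures differed between the brain groups as well. The median over all probe sets was 6.19 ± 0.072 (SD, n = 10) with haloperidol and 6.33 ± 0.044 (SD, n = 10) with placebo. Subtracting it from each array moved the brain changes up by 0.14, so that 54 of 58 members rose against 32.6% of all genes (3.72% of all genes fell). The members added were Atp5a1, Atp5b, Atp5d, Atp5j, Cyc1, Cox10, Cox16 and Cox6b2, with changes of 0.15 to 0.38. With the array median as a covariate, 0 members and 0 genes passed in limma, with 550 genes and 6 members at an unadjusted p under 0.05, and the median change of the members was 0.16. The first principal component of the tested genes, or that of the dim genes, likewise ended the calls as a covariate (unadjusted p under 0.05 in 913 and 3249 genes), and the members' medians were 0.04 and 0.36. At an unadjusted p under 0.05 there were 4 members above 0 with the former, and 43 above and 1 below 0 with the latter. Blood and immune markers also moved: Alas2, the first enzyme of heme synthesis in red cell precursors, ran from 6.31 to 7.30 with placebo and from 7.47 to 8.13 with haloperidol, and 4 of 8 markers of microglia and macrophages rose (median change 0.26). The mean level of those 8 ran from 7.35 to 7.91 with placebo and from 7.69 to 8.29 with haloperidol. Of 7 neuronal markers 0 passed, with 2 above and 5 below 0 and a median change of -0.03. Syt1 and Rbfox3 changed by -0.17 and -0.16 (limma, adjusted p = 0.0519 and 0.0682), and Snap25, a synaptic protein, stayed between 12.69 and 12.88. The array median ran from 6.27 to 6.40 in the placebo brains and from 6.08 to 6.33 in the haloperidol brains. It thus largely followed the treatment, and a fit with it as a covariate cannot separate it from the treatment. The part of the array median and of these markers in the rise of the members was not tested.

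Some brain arrays carried transcripts of other tissues. Albumin (Alb), made by hepatocytes, was at 11.11 in haloperidol 4T and at 4.51 or below in the other 19 brains. Growth hormone (Gh), made in the pituitary, was at 7.26 to 11.49 in placebo 1L and 2R and haloperidol 1R, 2N and 3B, and at 6.09 or below in the other brains. Without those 5 arrays, 45 of the 46 members still passed, all but Cox4i2. The share of all genes that passed in that fit is not given here. When placebo 1L and haloperidol 4T and 4N were left out, 38 of the 46 still passed, against 9.44% of all genes. The 8 members lost were Cox17, Cox19, Cox4i2, Cox6a1, Cox6a2, Sdhaf3, Sdhaf4 and Uqcrc1, with changes of 0.20 to 0.46. Alb (4.24) and Gh (4.98) were not raised in 4N, whose median shift of the members was 0.69. In 1L that shift was the lowest of the placebo brains (-0.10). The part of transcripts of other tissues in the lost calls was not tested. The Wilcoxon rank sum test called 41 of the 46, against 11.5% of all genes, and also lost Cox19.

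Probe sets outside the highest-mean choice gave like values. The members had 29 further probe sets, of which 28 were above the dim limit in brain, and 25 of these rose while 0 fell (limma, adjusted over all probe sets tested), with a median change of 0.52. The share of all probe sets that rose or fell in that fit is not given here. Atp5l had 6 probe sets in all, with changes of 0.74 to 0.83, and those of Atp5h moved by 0.55 to 0.75. Probe sets of 1 gene can hold the same sequence or that of processed copies elsewhere in the genome, so they are not independent.

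Shares were also read by level. Among brain genes with a mean of 11 or above, 24.2% rose and 8.77% fell, and 15 of the 20 members there rose. Among genes from 7 up to 9, 16.0% rose and 16.9% fell, and 12 of 14 members rose.

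Gene groups around the complexes were read in the same fit. Complex I, the NADH dehydrogenase, rose in 33 of 48 genes and fell in 0, with a median of 0.32. The smallest adjusted p was that of Ndufa4 (0.58, adjusted p = 0.00374), and the largest change that of Ndufb8 (1.07). Of 23 assembly factors of complexes III to V outside the rule, 13 rose and 2 fell. Coa3, which stabilises newly made Cox1, rose by 0.82, and Atpif1, the inhibitor of ATP hydrolysis by complex V, by 0.37. Cox20, a chaperone of Cox2, fell by 0.49 and Ttc19, a complex III factor, by 0.18. After subtraction of the array median 14 of the 23 rose and 1 fell. The tricarboxylic acid cycle, whose enzymes supply the chain with electrons, rose in 3 of 16 genes (median 0.09): Fh1, fumarate hydratase, by 0.35, Suclg1 by 0.36 and Idh3a by 0.19. After subtraction of the array median 12 of 16 rose, in a fit where 32.6% of all genes did.

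Of 15 mitochondrial regulators, 2 rose (Tfam, the packaging and transcription factor of mitochondrial DNA, by 0.29 and Ssbp1 by 0.22) and 3 fell (Polg2, a subunit of the mitochondrial DNA polymerase, by 0.50, Ppargc1b by 0.40 and Gabpa by 0.20). Ppargc1a and Nrf1, activators of respiratory genes, changed by -0.08 and -0.09 and did not pass. The median of the list was -0.09, and 0.04 after subtraction of the array median, with 3 higher and 2 lower. Less the median of all genes, it was -0.07 in both fits. Ribosomal proteins, which make no part of the chain itself, also moved upward: 65 of 71 cytosolic ribosomal protein genes rose (median 0.40) and 49 of 71 mitochondrial ones (median 0.34), and 0 fell in either list. Rps27 rose by 0.86 and Mrpl20 by 0.70.

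**Figure D4:**
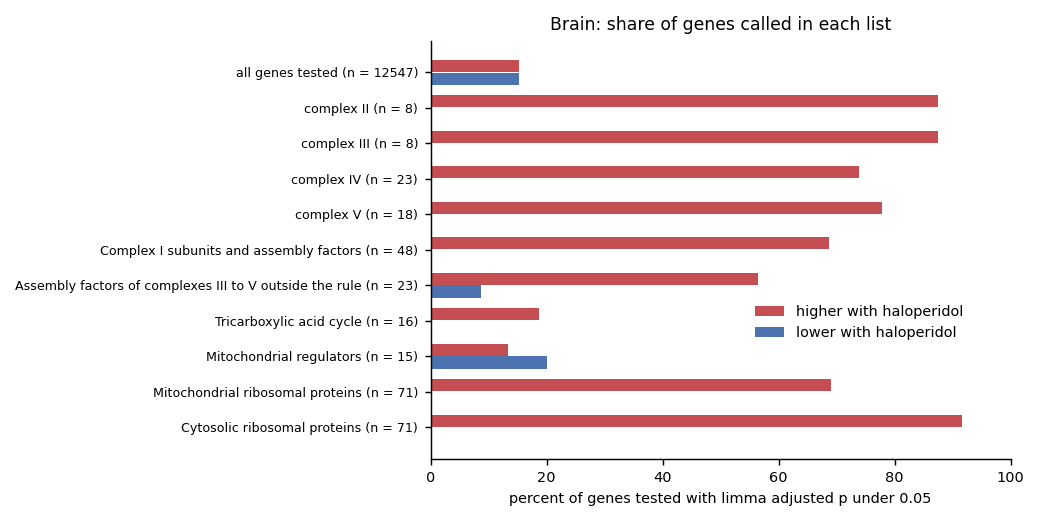
Percent of the genes tested in brain that passed as higher (red) or lower (blue) with haloperidol, for all genes, for complexes II to V and for the surrounding gene lists, with the number tested in brackets. All genes stand at 15.2% both ways, the complexes and the ribosomal lists far above on the higher side, and the tricarboxylic acid cycle and the regulators near the share of all genes.

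In liver, 0 of 57 members passed, and 0.0% of all 12547 genes did (limma, adjusted p of 0.251 or more). At an unadjusted p under 0.05 there were 8 members, all below 0, and 1316 genes in all (10.5%). A Wilcoxon rank sum test called 0 members too. The changes were small and nearly all of 1 sign: 56 of 57 members lay below 0, against 57.4% of all genes, with a median of -0.12 against -0.02. The medians for complexes II, III, IV and V were -0.13, -0.11, -0.11 and -0.11. Cox15, the heme A synthase, had the smallest p (0.0130 in limma, adjusted p = 0.401): it ran from 7.34 to 7.96 (median 7.79) with placebo and from 7.21 to 7.82 (median 7.44) with haloperidol, a change of -0.26. Atp5e ran from 9.47 to 9.95 and from 9.22 to 9.80, a change of -0.23 (adjusted p = 0.409). Uqcrfs1 changed by -0.19, Cox18 by -0.21, Atp5j2 by -0.16 and Cyc1 by -0.14. Cox7a1 had the largest liver change, -0.32 (adjusted p = 0.478). The array scores, taken as in brain, ran from -0.16 to 0.08 with placebo (0.00 ± 0.07, SD, n = 9) and from -0.20 to 0.01 with haloperidol (-0.09 ± 0.07, SD, n = 9), so the groups overlapped. The array median was 4.89 ± 0.090 (SD, n = 9) with haloperidol and 4.80 ± 0.082 (SD, n = 9) with placebo.

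The haloperidol effects in the tissues were compared directly by the contrast of the liver effect minus the brain effect over all 38 arrays. Of 57 members, 44 were below 0 (limma, adjusted p under 0.05) and 0 above, against 13.9% below and 9.16% above among the 10869 genes tested in both tissues. The median difference was -0.48, against -0.01 for all genes. The differences were largest for Atp5e at -1.37 (SE 0.28, adjusted p = 0.00183), Fmc1 at -1.22 (SE 0.25, adjusted p = 0.00193), Cox7a1 at -1.12 (SE 0.27, adjusted p = 0.00414) and Uqcr10 at -1.04 (SE 0.22, adjusted p = 0.00230). All 8 members of complex III passed, Cyc1 among them at -0.29 (adjusted p = 0.0234), and 7 of 8 in complex II, 14 of 22 in complex IV and 14 of 18 in complex V. Of the complex IV assembly factors 1 of 8 passed, Cox14. Sdha differed by 0.06, Atp5a1 by -0.11, Atp5b by -0.09 and Atp5d by -0.10, and these did not pass.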

How the data were processed

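The deposited values are log2 expression values that the authors obtained by RMA, using Affymetrix Expression Console. This is per the submitters' processing notes, without version numbers. No array model, scan date or filter on arrays was stated there. RMA gives arrays a common distribution, so a change in total RNA is not visible. The sorted values of the tissues differed by up to 1.42 log2 units and those within a tissue by at most 0.234, so each tissue was fitted alone. The table held 35556 probe sets, named from GEO's platform annotation: 21218 had 1 gene symbol, 1881 several and 12457 none. The highest-mean probe set of each of 18820 genes was used, and all 89 probe sets of members matched RefSeq genes. The lowest 33.3% of genes by mean in a tissue (below 5.52 in brain and 3.92 in liver) were left out, which left 12547 per tissue and 10869 in both. No signal over background was used, and the number of arrays limits the precision.

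The comparison of haloperidol with placebo used R 4.3.3 and its package limma 3.58.1 (two-sided, lmFit then eBayes), with Benjamini-Hochberg adjustment over all genes tested and a threshold of 0.05. The tests were checked on simulated data with independent genes, a check that does not cover genes that move together across arrays. Values by group, or for many members only the change, are given for a chosen set. The set holds the complex II subunits, Cyc1, Cycs, Fmc1, and the members of complexes III to V with the smallest p (5 in brain and 2 in liver each). It also holds the isoform sets, and members that passed in liver or in the difference between tissues. Every other member enters counts and ranges. Alternatives changed the dim filter, scaling, probe choice, blocks, covariates, test and arrays used. In them a change of sign was counted as a reversal only where one of both fits called the gene. The members and lists were chosen with earlier results of these data known. Replicates are mice per the design text. The fits include no batch, since the labels give none.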

Additional observations from a re-analysis of the deposited data

Results flagged for a closer look

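An array that stood far from the others of its group was found in 17 of the 200 sets of arrays examined (50 members in 4 groups), where chance alone gives about 1 in 20. The sets are not independent, since the members were read on the same arrays and move together. An excess over chance can therefore not be judged from this count. Liver placebo 3L accounted for 6 of the 17. It was the lowest array for Cox7a2l (8.20, others from 8.65), Cox7b (11.34, others from 11.62), Cox8a (10.92, others from 11.22), Cycs (11.08, others from 11.45), Sdhaf1 (7.19, others from 7.40) and Sdhaf2 (7.30, others from 7.65). Placebo liver 1N was lowest for Cox15 (7.34) and Uqcrfs1 (9.19), and placebo liver 3T for Atp5g1 (10.58). Haloperidol liver 3R was lowest for Atp5o (10.02) and Cox5b (10.58), and 2N for Cox6b2 (3.85). Among placebo brains, 1N was lowest for Atp5g1 (10.52) and Uqcrc1 (10.16), 1L was lowest for Sdhaf3 (7.84), and 4R was highest for Atp5c1 (11.30, others up to 11.08). In the haloperidol brains only Cox6a2 had such an array, 1R at 7.03 with the others from 7.39.

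The haloperidol effect differed between the tissues for 44 members, in limma's contrast of the liver effect minus the brain effect (adjusted p under 0.05). In complex II the differences were -0.62 for Sdhaf1, -0.54 for Sdhaf2, -0.52 for Sdhaf3, -0.69 for Sdhaf4, -0.50 for Sdhb, -0.40 for Sdhc and -0.74 for Sdhd. In complex III they were -0.29 for Cyc1, -1.04 for Uqcr10, -0.84 for Uqcr11, -0.40 for Uqcrb, -0.38 for Uqcrc1, -0.57 for Uqcrfs1, -0.71 for Uqcrh and -0.42 for Uqcrq. For cytochrome c the difference was -0.42 for Cycs. In complex IV they were -0.53 for Cox14, -0.79 for Cox4i1, -0.38 for Cox4i2, -0.43 for Cox5a, -0.47 for Cox5b, -0.33 for Cox6a1, -0.38 for Cox6a2, -0.56 for Cox6b1, -0.27 for Cox6c, -1.12 for Cox7a1, -0.54 for Cox7a2, -0.46 for Cox7a2l, -0.50 for Cox7b and -0.28 for Cox8a. In complex V they were -0.57 for Atp5c1, -1.37 for Atp5e, -0.52 for Atp5g1, -0.38 for Atp5g2, -0.48 for Atp5g3, -0.60 for Atp5h, -0.63 for Atp5j2, -0.52 for Atp5k, -0.92 for Atp5l, -0.82 for Atp5md, -0.61 for Atp5mpl, -0.56 for Atp5o, -0.56 for Atp5pb and -1.22 for Fmc1. In all 44 the liver effect lay below the brain effect, and none of the 44 passed in liver alone.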

How the results depend on the processing

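In brain, 41 to 54 members were called higher under other dim filters, scalings, probe choices, variance models, blocks and tests, with 41 to 46 of the original 46 among them, and 43 to 48 when each array was left out in turn, with 43 to 46 of the 46 among them. The call of Cox19 was lost in 8 of those 20 fits and that of Cox6a2 in 3. The count of 54 came with the array median subtracted, where 32.6% of all genes were called higher, against 15.2% without the subtraction. The Wilcoxon test called 41 members and 11.5% of all genes higher. The shares of all genes in the other fits of this section, including those of the difference between tissues, are not given here. A covariate computed from the arrays themselves ended every call in the brain fit: 0 members and 0 genes passed in limma with the array median, the first principal component of the tested genes or that of the dim genes (unadjusted p under 0.05 in 550, 913 and 3249 genes). The members' median change was then 0.16, 0.04 and 0.36, and 51, 39 and 53 of 58 lay above 0. The first of those components is made from the same genes that are tested. With it the sign turned for 11 of the 46: Sdhaf2 (-0.11), Cox19 (-0.063), Cox14 (-0.061), Cox7a1 (-0.049), Sdhaf3 (-0.04), Cox17 (-0.033), Sdhaf1 (-0.024), Cox6a1 (-0.023), Sdhaf4 (-0.023), Sdhb (-0.003) and Sdhd (-3.9e-05), and with the array median for Uqcrc1 (-0.036); the cause was not tested. Quantile normalization and array weights each called 1 member lower, Sdha, which lay above 0 after subtraction of the array median. In liver 0 members were called under all alternatives run, and the median change moved from -0.12 to -0.2 after subtraction of the array median. That subtraction moved all liver changes alike, by -0.09. Leaving out each array kept the medians at 0.34 to 0.42 in brain and -0.14 to -0.1 in liver, and 42 to 46 members in the difference between tissues. The title tag as a replicate block left 38 members in that difference as a fixed term and 43 by duplicateCorrelation. Lost with the fixed term were Cox4i2, Cox6a2, Cox6c, Cox7a2l, Sdhaf3 and Sdhaf4, and by duplicateCorrelation Cox4i2. Every liver tag recurs in brain with the same treatment, and the labels do not say what a tag marks. Over 18 pairs of arrays with 1 tag the correlation of deviations ran from -0.318 to 0.249, with 3 brain arrays closest to their own tag, so the tags were not taken to pair the tissues. Such correlations cannot exclude that arrays with 1 tag came from 1 mouse.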
